A study of Mus musculus with 16 samples.

Results

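The genes described here are 10 markers of macrophages and other leukocytes, measured in mouse fetal hearts. They are C1qa, C1qb, C1qc, Csf1r, Fcgr3, Cd68, Ptprc, Mrc1, Lyve1 and Adgre1. They were taken by symbol from a table of 16118 genes, and all 10 were found and passed the filter on low values that left 13950 genes for testing. In atria of embryos with Meis1 and Meis2 deleted in cardiomyocytes all 10 were on average higher than in control atria, and C1qb alone passed the test. In ventricles of the same embryos none of the 10 passed it. Between chambers, 8 of 10 were lower in ventricles than in atria of embryos with the deletion and 3 of 10 in controls, where 22.5% and 20.5% of all genes tested were called as lower. The test of the difference between these contrasts called none of the 10.

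Macrophages of the fetal heart come from progenitors of the yolk sac and the fetal liver and live among the cardiomyocytes, fibroblasts and vessels, where they clear dying cells and debris. C1qa, C1qb and C1qc encode the chains of C1q, which opens the classical complement pathway and is made mainly by macrophages. Csf1r is the receptor for the growth factors Csf1 and Il34, on which most tissue macrophages depend. Fcgr3 is a low-affinity receptor for immunoglobulin G, and Adgre1 encodes the adhesion receptor used as a macrophage surface marker in mice. Mrc1 is the mannose receptor, an endocytic receptor of resident macrophages. Lyve1 binds hyaluronan and marks both lymphatic endothelium and a class of resident macrophages next to vessels. Cd68 is a glycoprotein of endosomes and lysosomes. Ptprc is the tyrosine phosphatase carried on the surface of all nucleated blood-lineage cells. In whole tissue, fewer cells of a type and less RNA per cell cannot be told apart, and this holds for every value given here.

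The embryos were taken at stage E15.5, and each gave 1 atrial and 1 ventricular library. The double knockout (dKO) embryos, 4 in all, were Meis1flox/flox and Meis2flox/flox with 1 copy of the aMHC Cre transgene, in which a promoter active in heart muscle cells, that of alpha-myosin heavy chain, drives the recombinase Cre. The 4 control embryos were Meis1flox/flox and Meis2flox/flox without the transgene, so all embryos carried the floxed alleles, and an effect of Cre itself cannot be told apart from that of the deletion. Meis1 and Meis2 are homeobox transcription factors, and the series set out to compare their double deletion with control littermates in each chamber. By this design the deletion was made in cardiomyocytes, while the markers described here belong to other cells. The series design speaks of a constitutive or inducible deletion, and the labels do not say which applies here. They name 4 litters with 1 embryo of each genotype. The numbers that open the sample titles do not match this. There are 3 such numbers: the first covers 1 dKO embryo and 0 controls, the next 2 embryos of each genotype, and the last 1 dKO embryo and 2 controls. Embryos are numbered 1 to 4 within a genotype, and the dKO embryo that has a title number to itself is dKO embryo 1.

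Library depth is given here as the reads recovered from the values, summed over the 16118 genes, not as all reads sequenced. It was 14.3 to 19.3 megareads in dKO atria, 14.8 to 19.4 in control atria, 7.88 to 14.3 in dKO ventricles and 15.6 to 23.0 in control ventricles. Meis1 RNA was 64.5% of the control mean in dKO atria (exact permutation test, two-sided, p = 0.0286) and 98.5% in dKO ventricles (exact permutation p = 0.8). Meis2 RNA was 105% of the control mean in dKO atria (exact permutation p = 0.486) and 59.6% in dKO ventricles (exact permutation p = 0.0286). These are values over the whole gene, the sources used here do not give the deleted exons, and cells other than cardiomyocytes keep the genes. The chamber markers followed the labels. Myl2, the ventricular myosin light chain, averaged 3158 CPM in ventricles and 31.99 CPM in atria of dKO embryos, and 3903 CPM in ventricles and 22.5 CPM in atria of controls. The dKO atrium of embryo 1 stood apart in the markers described here. The marker calls between genotypes and between chambers are given with and without that library or embryo. Some other results, among them the ratios between markers, are given only with it.

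In the reference annotation (GENCODE M21, GRCm38) the C1q genes are neighbours on the minus strand of chromosome 4, within 18675 bases. C1qb lies at chr4:136880129-136886187, C1qc at chr4:136889804-136893065 and C1qa at chr4:136895917-136898803. Fcgr3 (chr1:171051174-171064935) and Ptprc (chr1:138062861-138175708) lie on the minus strand of chromosome 1. Mrc1 lies at chr2:14229392-14332057 and Adgre1 at chr17:57358691-57483527, both on the plus strand, and Lyve1 (chr7:110850607-110863239) and Cd68 (chr11:69664213-69666153) on the minus strand. Csf1r is on the plus strand at chr18:61100598-61132149, and 873 bases of its exons overlap exons of Hmgxb3 on the opposite strand. Whether reads were counted by strand is not given in the sources used here, so Csf1r values are uncertain by the reads of Hmgxb3. Hmgxb3 itself had 30.8 ± 1.996 CPM in dKO atria and 32.6 ± 1.84 CPM in control atria (SD, n = 4 each). Fcgr3 has close relatives, Fcgr2b and Fcgr4, which stood at 0.860 and 0.833 CPM in dKO atria and 0.579 and 0.609 CPM in control atria, and reads shared between them are uncertain.

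Promoter windows from RefSeq (GRCm38.p6) running from 250 bases before to 50 bases after the transcription start were on hand for 6 of the 10 genes. Those of C1qb, C1qc, Fcgr3 and Mrc1 are shown, because these 4 of the 6 passed the test in atria once the lowest dKO atrium was left out, as described below. They lie at chr4:136886151-136886450, chr4:136892865-136893164 and chr1:171059354-171059653 on the minus strand and at chr2:14229164-14229463 on the plus strand, and are written 5′ to 3′ along the gene. Capitals mark GAGGAAG, the recognition core of PU.1, the transcription factor that macrophage identity depends on, here read on the opposite strand as CTTCCTC.

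C1qb: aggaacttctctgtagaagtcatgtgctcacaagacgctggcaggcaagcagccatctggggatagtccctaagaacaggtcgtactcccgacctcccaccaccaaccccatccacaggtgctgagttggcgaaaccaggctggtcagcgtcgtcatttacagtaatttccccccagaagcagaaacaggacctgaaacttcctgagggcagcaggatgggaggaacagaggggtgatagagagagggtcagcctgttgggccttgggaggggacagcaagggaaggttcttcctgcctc
C1qc: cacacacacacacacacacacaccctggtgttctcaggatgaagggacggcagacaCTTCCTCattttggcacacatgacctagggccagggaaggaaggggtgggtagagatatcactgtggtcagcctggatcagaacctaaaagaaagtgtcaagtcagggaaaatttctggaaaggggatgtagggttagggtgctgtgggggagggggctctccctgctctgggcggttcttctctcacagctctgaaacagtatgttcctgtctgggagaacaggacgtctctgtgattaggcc
Fcgr3: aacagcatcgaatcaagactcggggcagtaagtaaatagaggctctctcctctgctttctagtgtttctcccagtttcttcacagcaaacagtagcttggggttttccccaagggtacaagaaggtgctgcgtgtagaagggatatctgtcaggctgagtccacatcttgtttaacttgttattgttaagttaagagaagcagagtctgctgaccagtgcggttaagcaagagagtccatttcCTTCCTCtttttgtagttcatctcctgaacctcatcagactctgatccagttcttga
Mrc1: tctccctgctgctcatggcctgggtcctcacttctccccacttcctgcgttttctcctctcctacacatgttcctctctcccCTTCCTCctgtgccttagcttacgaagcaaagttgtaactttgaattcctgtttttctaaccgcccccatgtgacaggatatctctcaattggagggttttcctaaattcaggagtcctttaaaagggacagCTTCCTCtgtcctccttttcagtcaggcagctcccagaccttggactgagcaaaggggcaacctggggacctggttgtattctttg

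GAGGAAG, searched on both strands, stood in the windows of 3 of the 6 genes, against 13.6% of all 32851 windows of this length. Its first base lay 194 bases before the start in C1qc, 7 before it in Fcgr3, and 168 and 36 before it in Mrc1. The windows of C1qb, Cd68 and Ptprc did not hold these letters. TGTGGT, a RUNX core, stood only in the C1qc window among the 6 genes, against 16.8% of all windows. TGCTGA, the core of MAF recognition elements, stood in the windows of C1qb and Fcgr3, against 19.5%. The 6 genes have 8 windows in all, so these counts of genes and shares of windows are not like for like. No motif overlapped another, and no binding was measured. Entries for C1qa, Csf1r, Lyve1 and Adgre1 were not used here.

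Per kilobase of the longest coding transcript, the C1q chains stood highest of the 10 in every group. In dKO atria C1qb, C1qa and C1qc averaged 18.3 ± 3.43, 14.4 ± 3.21 and 12.6 ± 3.58 CPM per kilobase, and in control atria 11.4 ± 1.06, 11.6 ± 1.0 and 9.18 ± 0.654 (SD, n = 4). Neighbours in this order overlapped between libraries, but within a library some pairs kept 1 order. On this scale C1qb exceeded C1qc in every atrium of both genotypes. It also exceeded C1qa in every dKO atrium, and C1qa exceeded C1qc in every control atrium. The order of C1qa and C1qc varied among dKO atria, and that of C1qb and C1qa among control atria. These orders were not tested. Csf1r came next in every group, at 9.50 ± 2.08 CPM per kilobase in dKO atria and 7.43 ± 0.851 in control atria. Ptprc was last in all 4 groups, at 0.737 ± 0.188 in dKO atria and 0.493 ± 0.0547 in control atria, and was separated there from Adgre1, the next above it, in every library. Lyve1 ranked 8 of 10 in dKO ventricles and 6 of 10 in control ventricles, against 5 of 10 in the atria of both genotypes, though it overlapped in each group with its neighbours in the order.

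The reads behind a value ranged from 29 for Ptprc in a dKO ventricle to 1271 for Csf1r in a dKO atrium. Counting alone gives Csf1r a coefficient of variation of 3.34% in dKO atria, against a measured 21.9%. For Ptprc in dKO ventricles it gives 15.8%, more than the measured 6.12%. Counting error was largest for Ptprc, Cd68 and Fcgr3, the markers with the fewest reads. Lymphocyte markers were scarce: 9 of 17 listed genes had values, and the highest mean over the 16 libraries was 1.27 CPM for Lck.

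**Figure D1:**
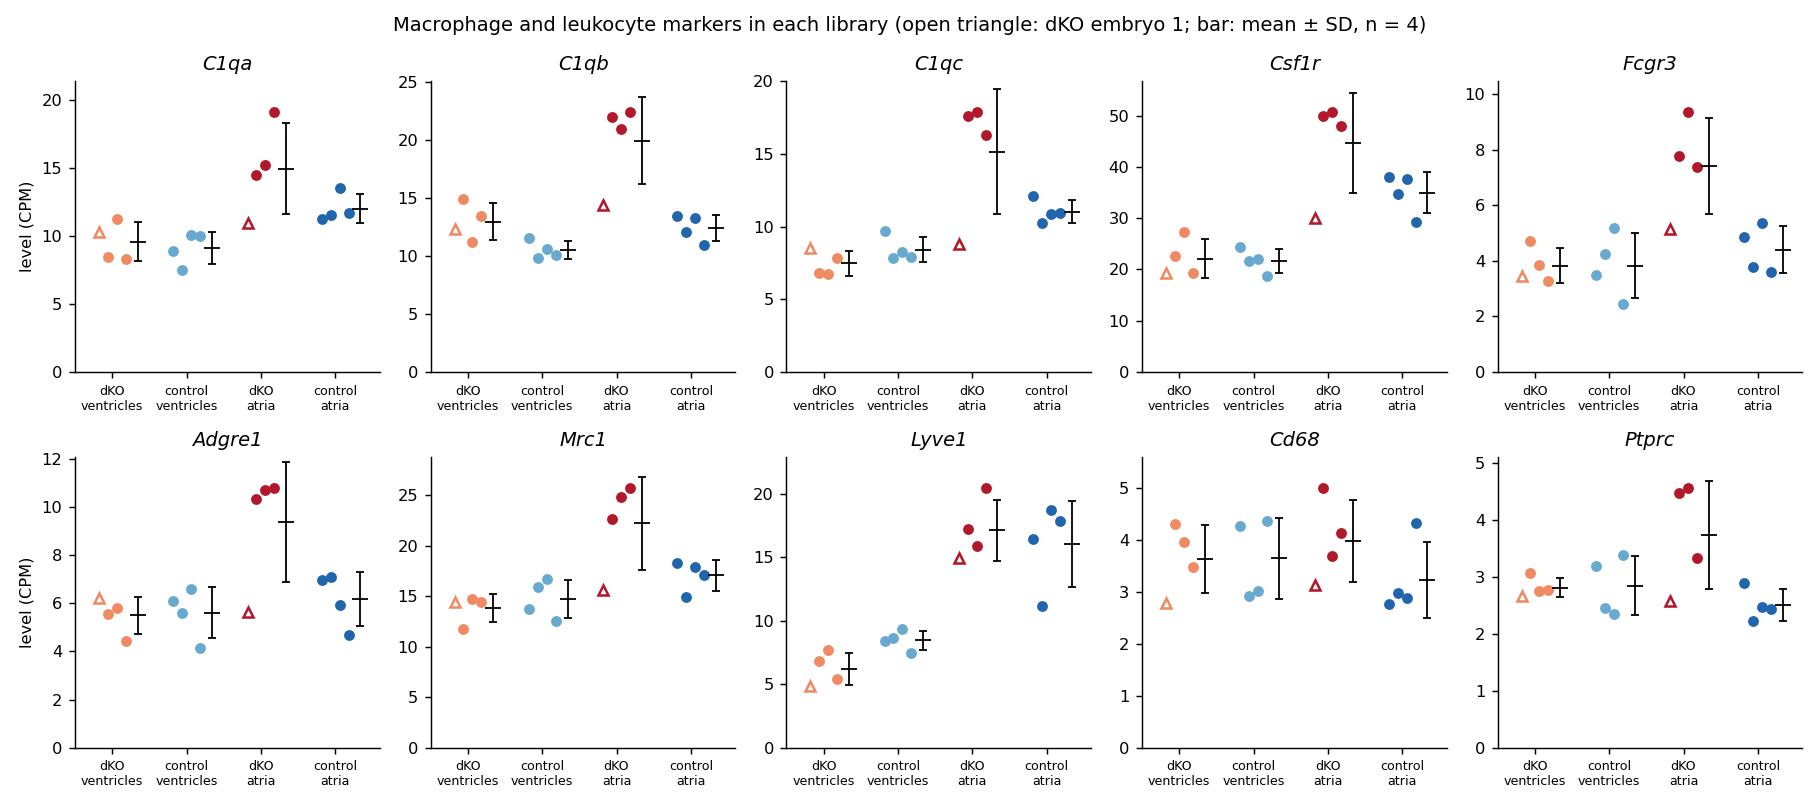
Level of each of the 10 markers (vertical axis, CPM) in dKO ventricles, control ventricles, dKO atria and control atria (horizontal axis, 4 libraries each). Points are libraries, open triangles are dKO embryo 1, and bars are the mean ± SD. In dKO atria the open triangle is the lowest point in all 10 panels, and for Csf1r it stands at 30.1 CPM against 48.0 to 50.7 CPM in the other 3.

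The first comparison asked how atria with the deletion differ from control atria. All 10 markers had a positive log2 fold change in dKO atria on the log2(CPM + 1) scale, from 0.10 for Lyve1 to 0.63 for C1qb. Only C1qb passed the test (limma, adjusted p under 0.05 over 13950 genes), so 1 of 10 rose and none fell. Of all genes tested 7.47% were called, and 4.04% of all genes tested were called as higher, so 1 of 10 is close to the background. The median log2 fold change of the 10 was 0.36, against -0.0046 over all genes tested. Unadjusted p was under 0.05 for 5 of the 10. The C1qb groups were also the only ones that did not overlap, against 7.29% of all genes that were higher without overlap.

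Of the C1q chains only C1qb passed. C1qb had 14.4, 22.01, 20.99 and 22.4 CPM in the 4 dKO atria, against 13.4, 12.03, 13.2 and 10.96 CPM in the 4 control atria. Every dKO atrium was above every control atrium, with a log2 fold change of 0.63 ± 0.13 (SE), adjusted p = 0.0148, and an exact permutation p of 0.0286, the smallest that 4 against 4 libraries allow. C1qb was called in 15 of 18 alternative analyses, with adjusted p between 0.00012 and 0.0519. C1qc had 8.78, 17.6, 17.9 and 16.3 CPM in the 4 dKO atria, against 12.1, 10.3, 10.9 and 10.9 CPM in the 4 control atria. The lowest dKO atrium was below all controls and the other 3 were above them, and the difference did not pass (log2 fold change of 0.38 ± 0.19 (SE), adjusted p = 0.288). C1qa had 10.95, 14.5, 15.2 and 19.1 CPM in the 4 dKO atria, against 11.3, 11.6, 13.6 and 11.7 CPM in the 4 control atria. The pattern was the same and weaker (log2 fold change of 0.27 ± 0.14 (SE), adjusted p = 0.318).

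Of the receptors, Fcgr3 came nearest to passing. Fcgr3 had 5.14, 7.76, 9.35 and 7.38 CPM in the 4 dKO atria, against 4.84, 3.77, 5.37 and 3.61 CPM in the 4 control atria. The mean was 168% of the control mean, with a log2 fold change of 0.63 ± 0.17 (SE), adjusted p = 0.0513, and the groups overlapped through dKO atrium 1. Csf1r had 30.1, 49.9, 50.7 and 47.98 CPM in the 4 dKO atria, against 37.96, 34.8, 37.7 and 29.3 CPM in the 4 control atria. Here 3 dKO atria exceeded all controls and dKO atrium 1 lay near the lowest control (log2 fold change of 0.32 ± 0.15 (SE), adjusted p = 0.265). Adgre1 had 5.63, 10.4, 10.7 and 10.8 CPM in the 4 dKO atria, against 6.96, 7.08, 5.93 and 4.67 CPM in the 4 control atria. The mean was 152% of the control mean, again with 3 of 4 dKO atria above all controls (log2 fold change of 0.51 ± 0.19 (SE), adjusted p = 0.159).

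Neither of the endocytic receptors passed. Mrc1 had 15.6, 22.6, 24.8 and 25.7 CPM in the 4 dKO atria, against 18.3, 14.9, 17.9 and 17.1 CPM in the 4 control atria. The other 3 dKO atria lay above all controls and atrium 1 lay among them (log2 fold change of 0.34 ± 0.14 (SE), adjusted p = 0.190). Lyve1 had 14.9, 17.2, 15.8 and 20.4 CPM in the 4 dKO atria, against 16.4, 11.2, 18.7 and 17.8 CPM in the 4 control atria. These groups overlapped broadly, and the 95% interval of the log2 fold change ran from -0.23 to 0.43. Cd68 averaged 3.99 ± 0.792 CPM in dKO atria and 3.24 ± 0.733 CPM in control atria (SD, n = 4 each), within the spread of both groups (log2 fold change of 0.24 ± 0.16 (SE), adjusted p = 0.480). Ptprc had 2.58, 4.48, 4.56 and 3.33 CPM in the 4 dKO atria, against 2.89, 2.23, 2.47 and 2.43 CPM in the 4 control atria. The dKO mean was 149% of the control mean, and the difference did not pass (log2 fold change of 0.42 ± 0.17 (SE), adjusted p = 0.181).

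**Figure D2:**
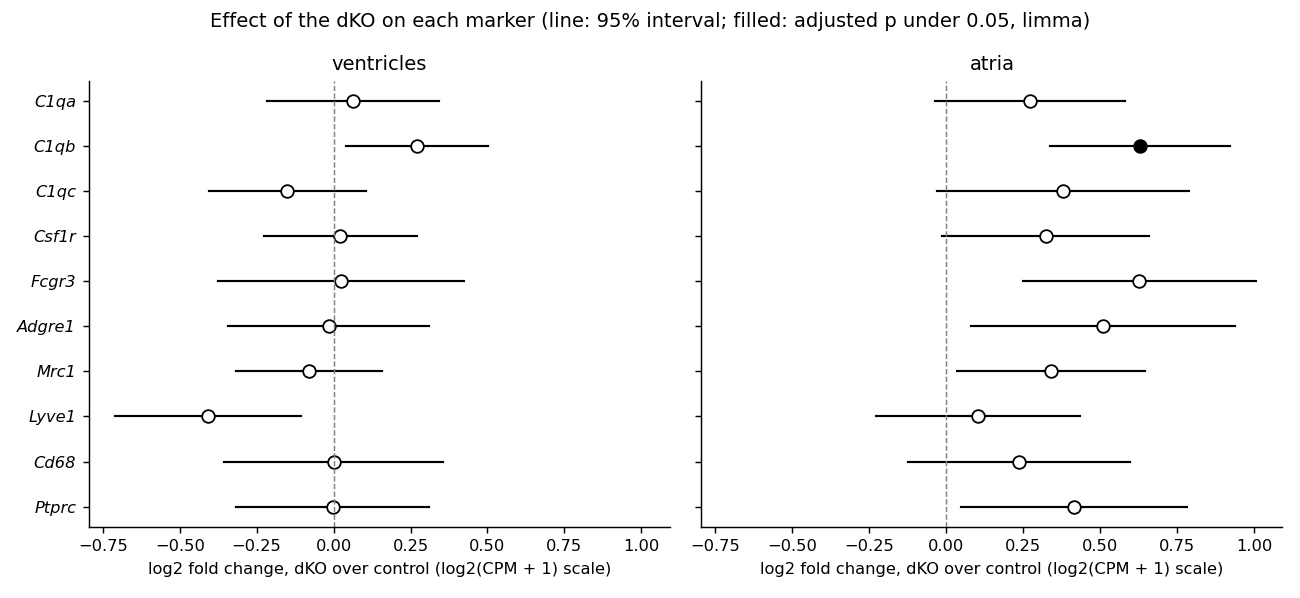
Log2 fold change of each marker, dKO over control (horizontal axis, log2(CPM + 1) scale), in ventricles (left) and atria (right). Circles are estimates from 4 against 4 libraries, lines are 95% intervals, and a filled circle marks an adjusted p under 0.05 in limma. In ventricles the estimates run from -0.41 for Lyve1 to 0.27 for C1qb and none is filled; in atria all 10 lie above 0 and C1qb alone is filled.

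A single library weighed heavily on these results. The dKO atrium of embryo 1 had the lowest level of all 10 markers among the dKO atria, whereas over all genes tested it was the lowest in 28.2%. It lay within the range of the control atria for 7 markers, below it for C1qa and C1qc and above it for C1qb. The other 3 dKO atria exceeded every control atrium for 8 of the 10 markers, all but Cd68 and Lyve1, against 10.5% of all genes. Setting aside the library that was lowest for every marker favours the markers, so the 10.5% is not a like background. The ventricle of the same embryo lay within the control range for 6 markers, above it for 2 and below it for 2. In both chambers that embryo is the only one under its title number.

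When each library was left out in turn, 0 to 6 of the 10 markers passed the test. Without dKO atrium 1 the 6 were C1qb, C1qc, Csf1r, Fcgr3, Mrc1 and Adgre1, with adjusted p from 0.000781 to 0.0121, and 4.33% of all genes were then called as higher. That library was the lowest for every marker, so leaving it out favours the markers and the 4.33% is not a like background. The log2 fold changes of the 6 in that fit ran from 0.49 for Mrc1 to 0.77 for Fcgr3, and the median of all 10 markers was 0.52. Without dKO atrium 2, without dKO atrium 3 or without control atrium 4 none passed, C1qb included. Among the 4 embryos of the title number that both genotypes share in equal number, 5 passed, where 3.96% of all genes were called as higher, with log2 fold changes of 0.72 for C1qb, 0.63 for C1qc, 0.46 for Csf1r, 0.85 for Fcgr3 and 0.49 for Mrc1. Those 4 embryos do not include dKO embryo 1 either. The other title numbers hold 0 controls or 1 dKO embryo, so neither gives a test of its own. What sets dKO atrium 1 apart was not tested.

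In ventricles the same comparison gave no call. None of the 10 markers passed the limma test, where 2.0% of all genes were called, and 2 had an unadjusted p under 0.05. Their median log2 fold change was -0.0016, against -0.018 over all genes tested. No marker passed in any of the alternative analyses either, with edgeR's quasi-likelihood test and DESeq2 among them. The dKO ventricles were the shallowest libraries, and whether their depth bears on this was not tested.

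Lyve1 had 4.87, 6.81, 7.67 and 5.44 CPM in dKO ventricles, against 8.42, 8.603, 9.31 and 7.49 CPM in control ventricles. Here 3 of 4 dKO ventricles lay below all controls and the mean was 73.3% of the control mean (log2 fold change of -0.41 ± 0.14 (SE), adjusted p = 0.216). C1qb had 12.4, 14.9, 11.2 and 13.4 CPM in dKO ventricles, against 11.6, 9.81, 10.6 and 10.1 CPM in control ventricles. The overlap came from a single dKO library (log2 fold change of 0.27 ± 0.11 (SE), adjusted p = 0.292). These were the 2 markers with an unadjusted p under 0.05, and they pointed in opposite directions. C1qc had 8.53, 6.81, 6.74 and 7.86 CPM in dKO ventricles, against 9.68, 7.81, 8.26 and 7.89 CPM in control ventricles. The dKO mean was 89.0% of the control mean (log2 fold change of -0.15 ± 0.12 (SE), adjusted p = 0.661).

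The ventricular groups of the other 7 markers overlapped. The 95% interval of the log2 fold change ran from -0.23 to 0.27 for Csf1r, from -0.22 to 0.34 for C1qa and from -0.32 to 0.16 for Mrc1. It was wider for the markers with fewer reads, from -0.38 to 0.42 for Fcgr3, -0.36 to 0.36 for Cd68, -0.32 to 0.31 for Ptprc and -0.34 to 0.31 for Adgre1. Csf1r averaged 22.1 ± 3.803 CPM in dKO ventricles and 21.7 ± 2.38 CPM in control ventricles, and Fcgr3 3.83 ± 0.644 and 3.83 ± 1.16 CPM (SD, n = 4 each).

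The dKO effect was then compared between the chambers in a fit over all 16 libraries that kept both libraries of an embryo together. The difference, ventricles minus atria, was negative for all 10 markers, with a median of -0.42 against -0.012 over all genes. None passed the limma test, where 2.64% of all genes were called, and 6 had an unadjusted p under 0.05. The estimates nearest to passing were those of Lyve1 (-0.51 ± 0.20 SE, adjusted p = 0.239) and Fcgr3 (-0.60 ± 0.24 SE, adjusted p = 0.256). Without dKO embryo 1 it passed for C1qc (-0.81, adjusted p = 0.00167), Mrc1 (-0.59, adjusted p = 0.0333) and Adgre1 (-0.78, adjusted p = 0.0413), with 1.95% of all genes then called in that direction. Leaving out the embryo whose atrium was the lowest for every marker favours such calls, so the 1.95% is not a like background. With all 4 dKO embryos, a different effect in the 2 chambers was not shown for any marker.

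Ventricles were then compared with atria of the same embryos. In dKO embryos 8 of the 10 markers were lower in ventricles than in atria and none was higher, all but Cd68 and Ptprc. In control embryos 3 were lower, Lyve1, Csf1r and C1qa. Of all genes tested 49.1% were called between the chambers of dKO embryos, 22.5% as lower in ventricles, and 46.9% between those of control embryos, 20.5% as lower. The median log2 fold change of the markers, ventricle over atrium, was -0.63 in dKO embryos and -0.21 in control embryos, against 0.027 and 0.031 over all genes. The groups did not overlap for 5 markers in dKO embryos and 4 in control embryos, against 18.4% and 18.9% of all genes lower without overlap. Both contrasts were drawn from the same fit, and the test of their difference is the one given above for the dKO effect.

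Lyve1 had the largest chamber difference of the 10 in both genotypes. In dKO embryos it averaged 6.197 ± 1.27 CPM in ventricles and 17.1 ± 2.42 CPM in atria (SD, n = 4 each), a log2 fold change of -1.34 ± 0.14 (SE), adjusted p = 3.32e-07. In control embryos it averaged 8.45 ± 0.751 CPM in ventricles and 16.04 ± 3.37 CPM in atria (SD, n = 4 each), a log2 fold change of -0.83 ± 0.14 (SE), adjusted p = 9.92e-05. The ventricle was lower than the atrium in all 8 embryos. Lymphatic endothelium also makes Lyve1, and of 11 of its genes tested 5 were lower and 1 higher in dKO ventricles, and 6 lower and 2 higher in control ventricles. Their summed level was 296 to 322 CPM in dKO ventricles against 431 to 457 CPM in dKO atria. In controls it was 298 to 321 CPM in ventricles against 390 to 432 CPM in atria, and Nr2f2, also made by veins and other cells, gave the largest part of both gaps. Nr2f2 averaged 18.9 CPM in dKO ventricles against 104.8 CPM in dKO atria, and 20.6 CPM in control ventricles against 109.4 CPM in control atria. Prox1, a transcription factor listed here for lymphatic endothelium, was called as higher in ventricles of both genotypes (log2 fold changes of 0.22 and 0.21 in dKO and control embryos). Flt4 was called in neither. Pdpn (-1.02 and -0.84) and Mmrn1 (-1.05 and -1.30) were called as lower in ventricles of both genotypes, in the same order. Over the 16 libraries Prox1 averaged 114 CPM and Mmrn1 5.22 CPM. Which cells gave the reads of these lymphatic genes, and their part in the Lyve1 difference, were not tested.

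Csf1r was lower in ventricles in all 8 embryos as well. It averaged 22.1 ± 3.803 CPM in dKO ventricles and 44.7 ± 9.78 CPM in dKO atria (SD, n = 4 each), a log2 fold change of -0.96 ± 0.13 (SE), adjusted p = 8.75e-06. In control embryos it averaged 21.7 ± 2.38 CPM in ventricles and 34.9 ± 4.0 CPM in atria (SD, n = 4 each), a log2 fold change of -0.66 ± 0.13 (SE), adjusted p = 0.000476. Hmgxb3, which shares bases with it, had log2 fold changes of -0.015 in dKO and -0.010 in control embryos. The Csf1r call was present in all 17 alternatives of either genotype.

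The C1q chains, Fcgr3, Mrc1 and Adgre1 were called in dKO embryos with log2 fold changes of -0.89 for C1qc, -0.78 for Fcgr3, -0.64 for Adgre1, -0.63 for Mrc1, -0.58 for C1qa and -0.57 for C1qb. In control embryos the same genes had -0.36, -0.18, -0.12, -0.20, -0.37 and -0.22 in that order, and only C1qa passed (adjusted p = 0.0293). C1qa lost that call without control embryo 1, 2 or 3 and under quantile normalization. C1qc passed there without dKO embryo 1 (adjusted p = 0.00248) and with TMM scaling (adjusted p = 0.0484), so the count in controls ran from 2 to 4 over the alternatives. Cd68 and Ptprc were called in neither genotype. In control embryos their estimates were above 0, 0.13 for Cd68 and 0.13 for Ptprc, and in dKO embryos below 0, -0.10 and -0.29. Without dKO embryo 1, Ptprc passed too in dKO embryos, with a log2 fold change of -0.40 and an adjusted p of 0.0371, where 21.2% of all genes were called as lower. The atrium of that embryo was the lowest dKO atrium for every marker, so the 21.2% is not a like background.

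**Figure D3:**
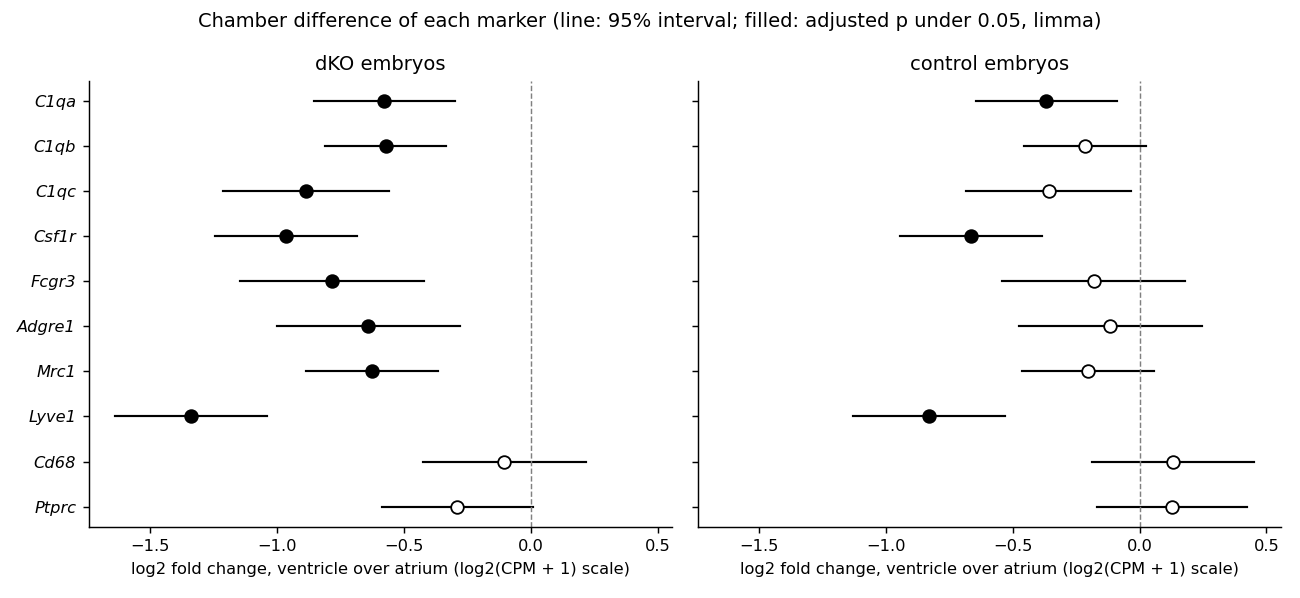
Log2 fold change of each marker, ventricle over atrium (horizontal axis, log2(CPM + 1) scale), in dKO embryos (left) and control embryos (right), 4 embryos each. Circles are estimates, lines are 95% intervals, and a filled circle marks an adjusted p under 0.05 in limma. In dKO embryos 8 circles are filled, down to -1.34 for Lyve1; in control embryos 3 are filled, down to -0.83 for Lyve1.

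Ratios between markers were also taken within each library. Over 8 such ratios in the 2 chambers, none passed a test between genotypes after adjustment over the 16 tests, the lowest adjusted p of the exact permutation tests being 0.152. The ratio of C1qb to C1qc was 1.45 to 2.19 in dKO ventricles against 1.198 to 1.29 in control ventricles, without overlap, and 1.17 to 1.64 in dKO atria against 1.004 to 1.22 in control atria. The ratio of Fcgr3 to Csf1r was 0.154 to 0.184 in dKO atria against 0.108 to 0.142 in control atria, also without overlap. The ratio of Lyve1 to Csf1r was 0.253 to 0.301 in dKO ventricles against 0.344 to 0.424 in control ventricles. These 3 had an unadjusted exact permutation p of 0.0286, the smallest possible, and 16 ratios were tested. The ratio of Mrc1 to Csf1r averaged 0.499 ± 0.0362 in dKO atria and 0.492 ± 0.0656 in control atria (SD, n = 4 each).

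After the mean of each group was taken away, the markers varied together across the 8 atria and less so across the 8 ventricles. All 45 pairs had a positive Pearson correlation in atria, with a median of 0.72, and 28 of 45 in ventricles, with a median of 0.10. Without dKO embryo 1 the atrial median was 0.19 over 7 libraries with 30 of 45 pairs positive, so the shared variation rested on that library. The values of a library share its depth and its dissection, and no p is given. Over both chambers, the genes outside the list that were most like the mean of the markers were Gabrb1, Soat1, Prrt2, Nyap1, Col11a1, Svep1, Rrp15 and Anxa3, by the lower of the correlations over 8 atria and over 8 ventricles, from 0.89 for Gabrb1 to 0.80 for Anxa3. None of these 8 is in any of the marker lists used here, and none was called between genotypes in either chamber. The ranking used dKO embryo 1, on which the shared atrial variation rested, and is not given without it.

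Other macrophage genes were set beside the markers. Of 36 listed, 31 were tested. In dKO atria 2 of these rose and none fell, where 4.04% of all genes tested were called as higher. Of the 31 estimates 26 were positive, with a median of 0.31. F13a1, the coagulation factor XIII subunit made by resident macrophages, averaged 20.99 ± 3.49 CPM in dKO atria and 8.49 ± 1.605 CPM in control atria (SD, n = 4 each), a log2 fold change of 1.22 (adjusted p = 0.000438). Even dKO atrium 1, at 16.8 CPM, was above the highest control at 9.995 CPM. Laptm5, a lysosomal protein of blood-lineage cells, rose by 0.53 on the same scale (adjusted p = 0.0210). For F13a1 the difference between chambers passed as well, at -1.38 (adjusted p = 0.000449), and in ventricles its log2 fold change was -0.16 (adjusted p = 0.709).

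Without dKO atrium 1, an alternative chosen after the values were seen, 7 of the 31 rose. Those that rose were Cx3cr1, Tyrobp, Laptm5, Ctss, F13a1, Coro1a and Cd86. Of all genes tested 4.33% were called as higher without dKO atrium 1. That library was the lowest dKO atrium for 24 of the 31 genes, so the 4.33% is not a like background. In ventricles none of the 31 was called with all libraries, and the median was -0.027. Between the chambers, 16 were lower and 1 was higher in dKO ventricles, against 5 lower and 4 higher in control ventricles. Of all genes tested 22.5% were called as lower in dKO ventricles and 20.5% in control ventricles. The test of the difference between these contrasts called 1 of the 31, F13a1, where 2.64% of all genes were called.

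Of the partners of C1q in the complement pathway, 23 genes were tested. Rises and falls of the genes in these lists are on the log2(CPM + 1) scale. Of all genes tested 7.47% were called in dKO atria, 4.04% as higher. In dKO atria Clu, the secreted chaperone clusterin that also inhibits complement's membrane attack, rose by 1.67 (adjusted p = 4.24e-06), and Serping1, the inhibitor of the C1 proteases, by 0.39 (adjusted p = 0.00835). Masp1, a protease of the lectin pathway, fell by 0.87 (adjusted p = 0.0306). Clu also rose in dKO ventricles, by 0.98 (adjusted p = 0.00232), the only gene of any list called there. Clu averaged 138 ± 20.5 CPM in dKO atria and 42.3 ± 4.54 CPM in control atria (SD, n = 4 each).

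Around Csf1r, 14 genes were tested and 2 fell in dKO atria, where 7.47% of all genes tested were called. Syk, a kinase downstream of several myeloid receptors that other cells also use, averaged 16.9 ± 2.18 CPM in dKO atria and 38.3 ± 2.62 CPM in control atria (SD, n = 4 each), a log2 fold change of -1.14 (adjusted p = 3.58e-05). Ets2 fell by 0.32 (adjusted p = 0.00772). The growth factor Csf1 averaged 30.8 ± 2.39 CPM in dKO atria and 37.4 ± 26.9 CPM in control atria, where 1 control library reached 77.7 CPM. Of 8 genes of Fc receptor signalling tested, Fcgrt, which carries immunoglobulin G across cells, rose by 0.53 (adjusted p = 0.00237) and Syk fell. None of 14 genes acting with Ptprc was called between genotypes in either chamber, the most abundant being Csk and Fyn.

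Among 16 scavenger and hyaluronan receptor genes tested, Msr1 rose by 0.59 and Scarb1 by 0.22 in dKO atria, and Cd44, a hyaluronan receptor like Lyve1, fell by 0.40. The Msr1 call was lost without dKO atrium 1. Of 14 chemokine and recruitment genes, Apoe rose by 0.34. With 7.47% of all genes tested called in dKO atria, and 4.04% called as higher, 1 of 14 is close to the background. Of 18 transcription factors of blood lineages, Id3 rose by 0.41 and Klf4 by 0.40, both also used by other cells, and the Klf4 call was lost without dKO atrium 1. Spi1, which encodes PU.1, had 3.98 ± 0.988 CPM in dKO atria and 2.702 ± 0.703 CPM in control atria (SD, n = 4 each) and did not pass (log2 fold change 0.43, adjusted p = 0.220).

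The dKO effect differed between the chambers for 11 genes of these lists, F13a1 among them (limma, difference of ventricles minus atria). Of all genes tested 2.64% were called in this contrast. Some genes stand in more than 1 list, and a share over the lists is not given here. The difference was below 0 for Msr1 at -0.97, Clu at -0.69, Itga9 at -0.59, Mrc2 at -0.54, Fcgrt at -0.45, Pecam1 at -0.29 and Lamp1 at -0.21. It was above 0 for Syk at 1.10, Masp1 at 1.04 and Ets2 at 0.40. Msr1 is a scavenger receptor of macrophages, and Mrc2 is a relative of Mrc1 made mainly by fibroblasts.

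Genes of other cell types moved in the same atria. Of 12 fibroblast genes 2 rose, Dcn by 0.47 and Tcf21 by 0.44, all 12 estimates were positive, and 9 rose when dKO atrium 1 was left out. Of all genes tested 4.04% were called as higher with that library and 4.33% without it. That library was the lowest dKO atrium for 10 of the 12, so the 4.33% is not a like background. The summed fibroblast level was 6539 to 10910 CPM in dKO atria against 5680 to 7542 CPM in control atria, and that of the 10 markers was 111 to 178 CPM against 111 to 129 CPM. Of 12 myocyte genes Actn2 and Pln fell, by 0.36 and 0.42, and their summed level was 24570 to 26440 CPM in dKO atria against 27760 to 32090 CPM in control atria. Lymphatic genes summed to 431 to 457 CPM in dKO atria against 390 to 432 CPM in control atria, with Itga9 and Pdpn called as higher. Only 5 of the 11 lymphatic estimates were positive, with a median log2 fold change of -0.012, so the list as a whole did not rise. Of 12 endothelial genes Eng was called as higher and Kdr as lower, and neither was called without dKO atrium 1. Blood genes overlapped, at 3039 to 5374 CPM in dKO atria against 2561 to 5713 CPM in control atria. Of 12 tested, only the platelet factor Pf4 was called, as higher, and whether platelets gave its reads was not tested. Of 5 antigen presentation genes, 2 lymphocyte genes and 4 granulocyte and mast cell genes tested none was called; the most abundant were Cd74 and Zbtb46, Lck and Cd247, and Kit and Cpa3. The part of any of these in the level of the 10 markers was not tested.

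**Figure D4:**
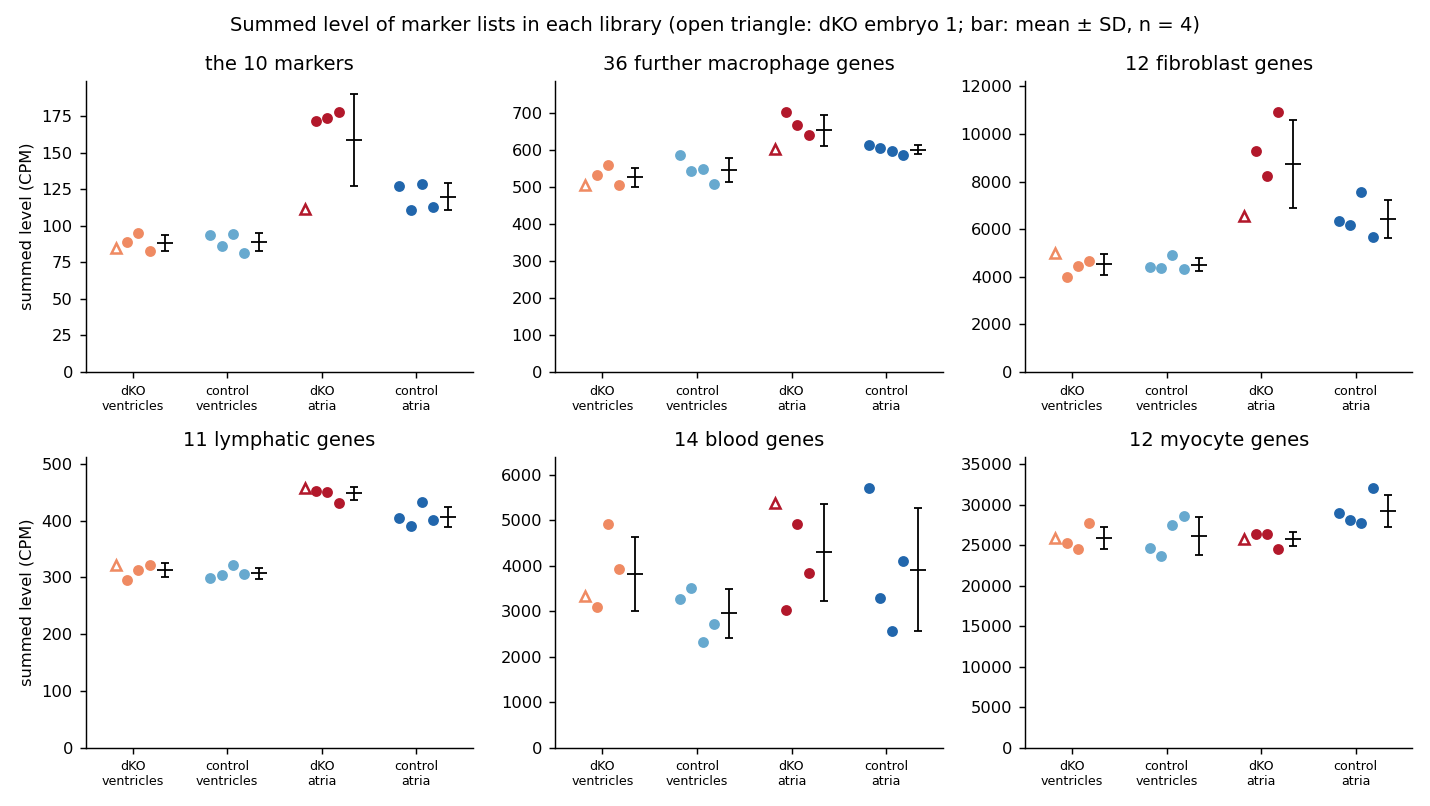
Summed level of 6 gene lists (vertical axis, CPM) in dKO ventricles, control ventricles, dKO atria and control atria (horizontal axis, 4 libraries each). Points are libraries, open triangles are dKO embryo 1, and bars are the mean ± SD. In dKO atria the open triangle is the lowest point for the 10 markers, the further macrophage genes and the fibroblast genes, and the highest for the lymphatic and blood genes.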

How the data were processed

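RNA from atria and ventricles of 8 embryos was sequenced as 16 libraries. The authors deposited CPM values (counts scaled to library size) per gene. The submitters' processing notes name cutadapt, RSEM 1.3.1 and the build GRCm38. The labels' protocols give poly(A) selection from small amounts of RNA. How the deposited CPM were normalized and genes filtered, which annotation was used and whether strand was, is not given in the sources used here. In each library 100% of deposited values were a whole number of reads plus 0.5, times 1 step, within 0.001 reads, so reads were recovered. A count of 3 reads corresponds to 0.128 to 0.364 CPM.

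Tests were made with limma 3.58.1 (R 4.3.3, moderated, with a trend) on log2(CPM + 1), for the 13950 genes averaging at least 1 CPM over the 16 libraries. Fold changes on this scale understate those of low genes. P-values are two-sided and adjusted by Benjamini-Hochberg over all genes tested, with calls made under 0.05. The dKO effect was fitted on the 8 libraries of a chamber. Chamber contrasts and the difference of effects used all 16, with the embryo as a random block (consensus correlation 0.108). The pairing of chambers comes from the labels, which give both chambers of an embryo 1 number, and the deviations of same-numbered libraries correlated at 0.202 to 0.511. A single value or ratio was tested by an exact permutation test over libraries. Gene IDs matched GENCODE M21 for 16103 of 16118 rows.

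Alternatives were edgeR 4.0.16 and DESeq2 1.42.0 on the recovered reads, other pseudocounts, filters and scalings, title numbers as a block, the 4 embryos of the title number shared in equal number alone, and each library or embryo left out. The 10 members and the gene lists were chosen with earlier results of these data known. All 10 members were named. Of each other list, the called genes were named, up to 4 with the smallest adjusted p per comparison, or with none called the 2 most abundant. Csf1 and Spi1, and the genes called without dKO atrium 1, fall outside that rule and were named after their values were seen. Some results on single genes of the other lists, among them a fall without dKO atrium 1, are not reported here.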

Additional observations from a re-analysis of the deposited data

Results flagged for a closer look

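In 40 groups of 4 libraries, 10 markers in 4 groups each, 5 held a library far from the other 3, where chance flags about 5% of such groups. In each case the gap to the nearest library, divided by the whole range, was above Dixon's 95% critical value for 4 values.

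C1qc (8.779 CPM, gap over range 0.831), Csf1r (30.09 CPM, 0.869) and Adgre1 (5.626 CPM, 0.915) were low in the dKO atrium of embryo 1. That library was the lowest dKO atrium for all 10 markers, for 24 of 31 further macrophage genes and for 10 of 12 fibroblast genes, against 28.2% of all genes. It was the lowest for 0 of 5 antigen presentation genes and 1 of 12 endothelial genes, and the highest dKO atrium for 4 and 7 of them. Cd68 was high in control atrium 4 at 4.329 CPM (gap over range 0.866). Mrc1 was low in dKO ventricle 2 at 11.79 CPM (gap over range 0.882), the shallowest library at 7.88 megareads. No cause was tested for any of the 5.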

How the results depend on the processing

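The number of the 10 markers called in atria, 1 with the settings as reported, was 2 with a pseudocount of 5, with TMM scaling and with DESeq2. It was 5 within the title number that holds 2 embryos of each genotype (the shared number), and 0 to 6 when each library was left out in turn. With the title number as a replicate block it was 7, all but Cd68, Ptprc and Lyve1 (adjusted p 0.000682 to 0.0171), with 1392 of 13950 genes called, against 1042 as reported. The title numbers are not stated to mark litters. In ventricles 0 markers were called under every alternative run. The count over all genes there, 279 as reported, was 469 with DESeq2 and 79 within the shared number. For the difference between chambers, 0 markers as reported became 0 to 3 and 368 genes became 238 to 470 with an embryo left out. The chamber fits without the replicate block for embryo called 8 markers in dKO embryos, 3 in control embryos and 0 for the difference, as with it.

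Every estimate that changed sign was uncalled. In ventricles, Cd68 (-0.00011 as reported) was 0.000353 with a pseudocount of 0.5, 0.011 with TMM, 0.083 with the title number block, 0.18 within the shared number, and -0.077 to 0.093 leaving out a library. Ptprc (-0.0030) was 0.0079, 0.013 and 0.038 with TMM, the block and the shared number, and -0.065 to 0.063 leaving out a library. Leaving out a library gave -0.13 to 0.15 for Fcgr3, -0.13 to 0.068 for Adgre1, -0.019 to 0.12 for C1qa, -0.081 to 0.080 for Csf1r, and in atria -0.050 to 0.18 for Lyve1. Cd68 between chambers of dKO embryos was 0.056 with quantile normalization. Causes were not tested. Cd68, Ptprc and Fcgr3 gave no value with a filter at 5 CPM. Depth limits Ptprc most, with 29 reads in its lowest library.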
